A study of Drosophila melanogaster with 2 samples.

Results

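The translation initiation and elongation factor genes described here are the protein-coding genes of the fly annotation whose symbol starts with eIF or eEF followed by a digit. The rule found 51 genes among 13968 protein-coding genes, of which 44 are initiation factor genes and 7 are elongation factor genes. It uses names alone, although the set of genes was proposed with earlier results of these data known. The files list ChIP-seq peaks of the homeodomain protein Rough, which is best known for patterning the photoreceptor clusters of the developing eye. The material was whole Drosophila melanogaster embryos aged 0 to 24 h of the strain ro-GFP, transgenic flies that express a Rough-eGFP fusion, immunoprecipitated with an anti-GFP antibody. The 2 biological replicates form 1 group and share that genotype and age. No control library was analysed here, and whole embryos mix all cell types of all those stages, so a peak cannot be placed in a cell type.

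Initiation factors bring the small ribosomal subunit, loaded with the initiator tRNA, to the capped end of an mRNA and hold it while it scans for the start codon; the large subunit then joins. Elongation factors deliver each aminoacyl-tRNA to the ribosome and move the ribosome along the message. Most core factors are needed in every cell, while some paralogs are restricted to certain tissues. Many housekeeping promoters in flies hold the word recognised by the DREF factor.

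The windows below show the DNA under the summits that the account turns on, each 101 bp long, centred on the summit and read 5′ to 3′ on the strand of the named gene. They were read from the RefSeq Release 6 genome, which has the coordinates of the dm6 build used by the lists. Capitals mark the words searched, which were TATCGATA (the DREF word), TAATTA (a homeodomain word), CAGCTG (an E-box) and GAGAG (a word of the Trithorax-like protein), on both strands. The first pair is from eEF1gamma, with a peak far upstream and another at its own start. The windows of eIF1 and eIF3h are from optimal-set peaks that, of the replicates' lists, only that of replicate 2 held. Both are centred on the optimal-set summit, and the replicate 2 summit of eIF3h lies outside its window. The window of eIF4EHP is from the members' strongest promoter candidate left outside every thresholded list. That of eIF5B is from a peak found in the list of replicate 1.
eEF1gamma upstream peak, chr3R:29214396-29214496, plus strand: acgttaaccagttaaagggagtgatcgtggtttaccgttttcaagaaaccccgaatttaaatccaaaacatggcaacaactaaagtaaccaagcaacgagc
eEF1gamma promoter, chr3R:29220106-29220206, plus strand: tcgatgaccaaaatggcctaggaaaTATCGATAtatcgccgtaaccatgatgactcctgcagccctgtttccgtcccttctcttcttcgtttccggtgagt
eIF1 promoter, chr3L:3222985-3223085, plus strand: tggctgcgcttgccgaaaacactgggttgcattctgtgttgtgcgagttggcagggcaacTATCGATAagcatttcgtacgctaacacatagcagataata
eIF3h promoter, chr2L:5052442-5052542, minus strand: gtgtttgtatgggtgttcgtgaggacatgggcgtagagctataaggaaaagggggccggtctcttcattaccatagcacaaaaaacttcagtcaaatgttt
eIF4EHP promoter, chr3R:24109137-24109237, minus strand: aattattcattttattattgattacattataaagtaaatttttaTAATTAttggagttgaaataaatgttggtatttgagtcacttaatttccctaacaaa
eIF5B promoter, chr3L:3460701-3460801, minus strand: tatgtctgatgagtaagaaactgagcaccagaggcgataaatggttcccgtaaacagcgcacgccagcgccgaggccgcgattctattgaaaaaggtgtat
The start of eEF1gamma lies at base 67 of its promoter window, counted from the 5′ end, and TATCGATA lies on the upstream side of it. The eIF1 window also holds TATCGATA, the eIF4EHP window holds TAATTA and is 81.2% A or T, and the other 3 windows hold none of these words. A word is only a match of letters; its use by a factor was not measured.

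A gene was counted as having a promoter peak when a summit lay within 500 bp of one of its transcript starts. In the optimal set, the authors' thresholded list over both replicates with 1969 peaks, 6 of the 51 genes had one: eIF1, eIF3c, eIF3h, eIF6, eEF1alpha1 and eEF1gamma. That is 11.8% (95% Wilson interval 5.51 to 23.4%) beside 7.62% of all protein-coding genes, so the background share lay inside the interval. The other 45 genes had none. In the authors' conservative set the same 6 genes were found, beside 6.83% of all genes. The intervals cover the counting of genes only, because the lists hold no read counts and the depth is unknown.

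The list of replicate 1 (1484 peaks) held a promoter peak of 4 of the 51 genes, which is 7.84% (3.09 to 18.5%) beside 6.03% of all genes. The list of replicate 2 (1113 peaks) held 6 of 51, beside 5.43% of all genes. The members' share thus lay 1.82 percentage points above that of other genes in replicate 1 and 6.35 points above it in replicate 2, and the background lay inside the interval in replicate 1 and just below it in replicate 2. The genes were eIF6, eIF3c, eEF1gamma and eIF5B in replicate 1, and the same 6 as in the optimal set in replicate 2. Over all genes with a promoter peak in the optimal set, 52.9% had one in both replicates' lists, 21.2% in that of replicate 1 but not 2, and 13.3% in that of replicate 2 but not 1. Among the 6 genes here these counts were 3, 0 and 3. Counts this small do not separate the genes from the background, and no test over the list was made.

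**Figure D1:**
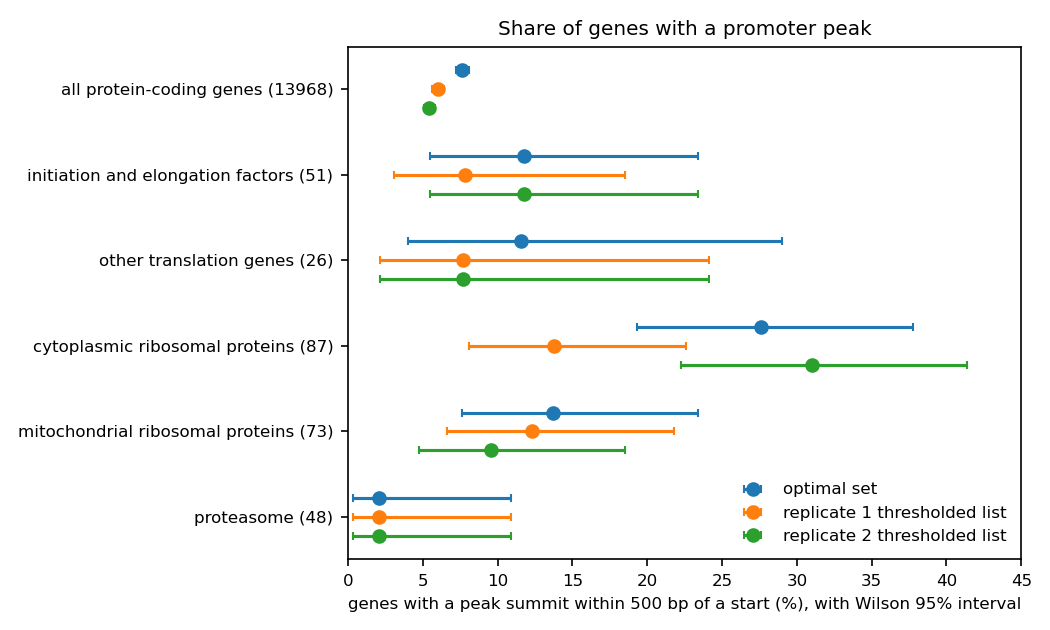
Percentage of genes with a promoter peak in the optimal set and in each replicate's thresholded list, for the 51 translation factor genes, 4 lists of related genes and all protein-coding genes, with Wilson 95% intervals as bars. The translation factor genes lie at 11.8%, 7.84% and 11.8%, and the intervals include the share of all genes in the optimal set and in replicate 1.

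Other ways to tie peaks to genes gave different counts. Taking the gene with the nearest start, 6 of the 51 genes were the nearest gene of an optimal-set peak, against 10.5% of all genes; here eIF5B entered through a peak in its intron and eIF1 left, because its peak lies nearer to another gene. Counting summits anywhere in the gene or up to 2 kb upstream, 10 of 51 had a peak, which is 19.6% (11.0 to 32.5%) beside 13.1% of all genes. The 4 genes added to the 6 were eIF5B, eIF4EHP, eIF2Bbeta and eIF3d1.

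The ranked lists hold all candidates, past the threshold or not. In the one over both replicates that holds every optimal-set peak (144610 candidates, meant wherever a value is given over both replicates), 32 of the 51 genes had a promoter candidate (62.7%, 49.0 to 74.7%) beside 71.8% of all genes. The shares were 51.0% beside 54.8% in the ranked list of replicate 1, and 66.7% beside 71.2% in that of replicate 2. The strongest promoter candidate of a gene had a median signal value, the authors' own enrichment measure for a peak, of 29.4 over these 32 genes and of 28.7 over all genes with one. Its median percentile among all candidates was 75.4 beside 74.0. The order varied with the list and the window: it was 68.0 beside 71.4 for other genes in replicate 1, 80.5 beside 71.7 in replicate 2, and 55.4 beside 67.4 when the window was 250 bp. Of the 32 genes, 6 were those of the optimal set, 1 was eIF4EHP, and 25 had candidates below the threshold, with a median of 24.6 and a −log10 IDR of at most 0.454. The other 19 had no promoter candidate over both replicates, and 13 of them had none in either replicate's ranked list. A separate ranked list over both replicates, that of the conservative set, held a promoter candidate of 34 of the 51 genes (66.7%) beside 70.6% of all genes. It added eEF1beta, eIF3a, eIF4E6 and eIF5B, with values given below, and lacked eIF4E4 and eIF4E5.

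**Figure D2:**
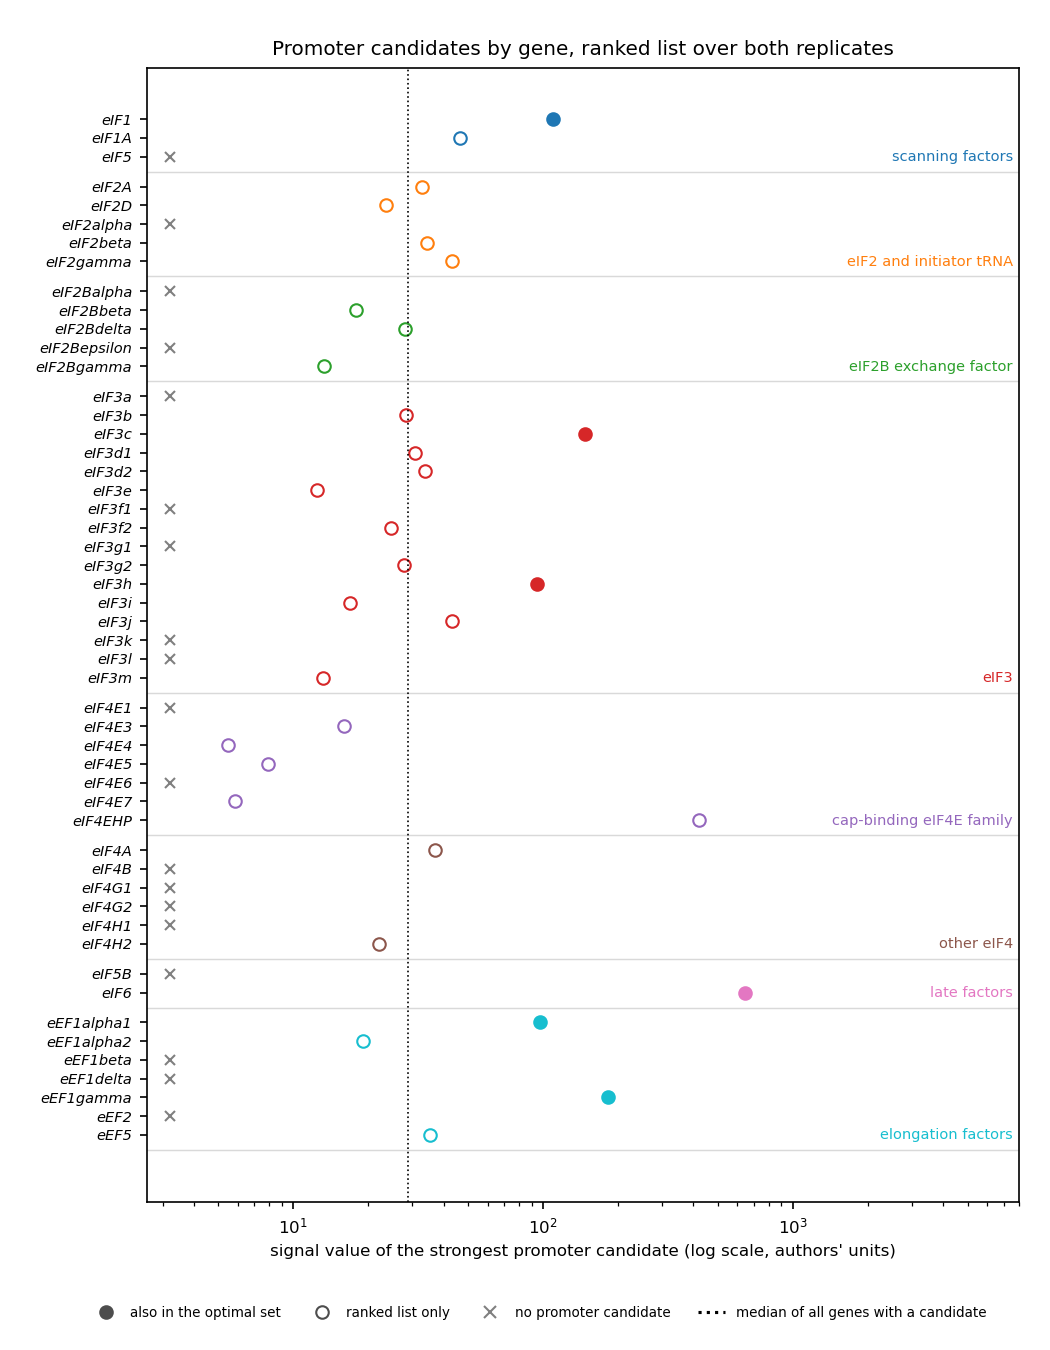
Signal value (log scale) of the strongest promoter candidate of each of the 51 genes in the ranked list over both replicates, by role; filled points are also in the optimal set, and crosses mark genes with no promoter candidate. The 6 filled points and eIF4EHP lie above 90, the other 25 candidates between 5.50 and 46.6, and the dotted line is the median of all genes, 28.7.

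The factors counted here for scanning and the check of the start codon are eIF1, eIF1A and eIF5. The eIF1 peak, at chr3L:3222845-3223224, had a signal value of 110 over both replicates (rank 870 of 1969), 47.3 in replicate 1 and 59.2 in replicate 2. It was in the list of replicate 2; in replicate 1 its −log10 irreproducible discovery rate (IDR) was 1.64, under the value of 2 that the thresholded lists need. Its summit lay 306 bp upstream of eIF1 but only 75 bp from RpL28, a gene for a protein of the large ribosomal subunit, so which of the pair the peak belongs to cannot be told apart. The other candidate of this role was that of eIF1A, with 46.6 over both replicates, the highest of all members left below the threshold. The gene eIF5, which triggers GTP hydrolysis at the start codon, had no promoter candidate in any ranked list.

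No gene for eIF2, the GTPase that carries the initiator tRNA, or for eIF2B, its exchange factor, had a promoter peak in any thresholded list. Candidates of the first kind, with eIF2A and eIF2D counted here as further initiator tRNA factors, ran from 23.5 to 43.3 in 4 of 5 genes, highest at eIF2gamma. Those of eIF2B ran from 13.3 to 28.1 in 3 of 5 genes, highest at eIF2Bdelta. The alpha subunit genes eIF2alpha and eIF2Balpha had no candidate, and eIF2Bepsilon had one of 9.57 in replicate 2 alone. The strongest peak of the whole optimal set, at chrX:2703710-2704053, lay 689 bp upstream of eIF2Bbeta, with 1265 over both replicates, 628 in replicate 1 and 640 in replicate 2. It ranked first in each of the 3 lists, but its summit was 30 bp from the start of Ugalt, a UDP-galactose transporter gene, and outside the promoter of eIF2Bbeta as defined here. The candidate at the eIF2Bbeta promoter itself had only 17.9.

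The eIF3 genes encode the large scaffold that binds the small subunit, and 2 of 16 had a promoter peak. At eIF3c, a core subunit, the peak at chr2R:17665476-17665855 had 147 over both replicates (rank 516), 71.2 in replicate 1 and 75.0 in replicate 2, and was in both replicates' lists. Its summit lay 12 bp upstream of the start, 2 bp downstream of it in replicate 1 and 23 bp downstream in replicate 2, and no other gene starts within 500 bp of it. The replicates thus placed it close together at a start that belongs to this gene alone.

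At eIF3h, a non-core subunit, the peak at chr2L:5052302-5052681 had 94.3 over both replicates (rank 1128), 51.3 in replicate 1 and 53.7 in replicate 2. It passed in replicate 2 but not in replicate 1, where the −log10 IDR was 1.49. Its summit lay inside the gene, 288 bp downstream of the nearer of its starts, and 351 bp from the start of senju. The other 9 eIF3 candidates had 12.5 to 43.3, highest at eIF3j, and eIF3a, eIF3f1, eIF3g1, eIF3k and eIF3l had none in the list over both replicates. At eIF3a there was a candidate of 19.8 in replicate 2 and of 23.3 in the ranked list of the conservative set, and at eIF3l one of 5.47 in replicate 1. A further optimal-set peak, at chr3R:23678575-23678954, with 134 over both replicates, 90.2 in replicate 1 and 48.7 in replicate 2, lay 1274 bp upstream of eIF3d1 and 130 bp from GILT2.

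The eIF3 family has paralog pairs, and no promoter peak separated their copies: eIF3d1 and eIF3d2 had candidates of 30.6 and 33.8. The peak upstream of eIF3d1 counted for it by the gene-body rule, by which eIF3d2 had none. The second copies eIF3f2 and eIF3g2 had 24.6 and 27.8, while eIF3f1 and eIF3g1 had none in any ranked list.

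The eIF4E family binds the mRNA cap. None of its 7 genes had a promoter peak in a thresholded list, and eIF4E1, the main cap-binding gene, had no candidate. The paralog eIF4E6 had one of 15.4 in replicate 2 and of 9.10 in the ranked list of the conservative set. The paralogs eIF4E3, eIF4E4, eIF4E5 and eIF4E7 had 5.50 to 16.0, the lowest range of any role. The exception was eIF4EHP, whose product binds the cap without recruiting eIF4G and so represses translation of its targets. Its promoter candidate had 422 over both replicates (rank 64 of 144610), 288 in replicate 1 (rank 41 of 93400) and 139 in replicate 2 (rank 144 of 121684).

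That candidate carried a −log10 IDR of 5 in all 3 ranked lists, far past the threshold, yet was in no thresholded list. It was among 144 candidates past the threshold that the optimal set does not hold, of which 64 lie on the chromosome arms and 15 genes have one at the promoter; eIF4EHP was the only member. The sources used here do not say why these were left out. The summit lay 227 bp upstream of eIF4EHP and 149 bp from the start of CG18428. A weaker peak of 71.4, in the intron of eIF4EHP 9779 bp from its start, was in the optimal set (rank 1623). Its summit lay nearer to the start of Syx1A, at 6582 bp, and its q value was 0.318. Neither replicate's thresholded list nor the conservative set held it.

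The other eIF4 genes encode the helicase eIF4A, its helpers eIF4B, eIF4H1 and eIF4H2, and the scaffolds eIF4G1 and eIF4G2. Only eIF4A, with 37.1, and eIF4H2, with 22.0, had a promoter candidate over both replicates, and the remaining 4 had none in any ranked list. In replicate 2 the candidate of eIF4A had 29.7, and in replicate 1 it had 13.6.

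The late factors gave the strongest promoter peak of all 51 genes. At eIF6, whose product keeps the large subunit from joining too early and serves in its maturation, the peak at chr2R:23850276-23850537 had 644 over both replicates (rank 17 of 1969), 277 in replicate 1 (rank 40 of 1484) and 367 in replicate 2 (rank 9 of 1113). All 3 values stand in the top of their lists, and the authors' q value over both replicates was 0.00971. Of the other promoter peaks in the optimal set, those of eEF1gamma, eIF3c and eIF1 had a q below 0.05. Those of eEF1alpha1 (0.0569) and eIF3h (0.0661) were above it. The summit of the eIF6 peak lay 125 bp upstream of eIF6, inside the neighbouring gene ytr and the antisense RNA gene asRNA:CR45928, which starts 96 bp from it. No other protein-coding start lies within 500 bp.

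The partner of eIF6 in this role is eIF5B, the GTPase that joins the subunits. It had a promoter peak in replicate 1, with 63.3 (rank 884 of 1484) and a summit 148 bp upstream of one of its 2 starts. In replicate 2 the candidate had 28.7 and a −log10 IDR of 0.789, and the ranked list that holds the optimal set had none. The ranked list of the conservative set, also over both replicates, held it at 91.2 (rank 1271) with a −log10 IDR of 1.96, just under the threshold. The optimal set held 2 peaks in the introns of this 32320 bp gene, with 75.6 at 5513 bp and 96.4 at 27811 bp inside the nearer start. The first had a q value of 0.216. The second lay nearer to another gene, with its summit 7857 bp from the start of sty. Both peaks were in the list of replicate 2, with 53.7 and 49.2. The listed peaks inside eIF5B thus lay at the promoter in replicate 1 and in introns in replicate 2. The promoter candidate was present in both replicates and came close to passing over both.

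Of the 7 elongation factor genes, 2 had a promoter peak. At eEF1gamma, a subunit of the exchange complex that reloads eEF1A with GTP, the peak at chr3R:29220104-29220259 had 182 over both replicates (rank 346), 68.8 in replicate 1 and 109 in replicate 2, and was in both replicates' lists. Its summit lay 16 bp upstream of the start, 10 bp downstream of it in replicate 1 and 1 bp upstream in replicate 2, and no other gene starts within 500 bp. A stronger peak, at chr3R:29214314-29214570, had 413 over both replicates (rank 67), 216 in replicate 1 and 171 in replicate 2. It lay 5726 bp upstream of eEF1gamma, for which it counted as the nearest protein-coding start, and 116 bp from the start of lncRNA:CR31044, so its tie to eEF1gamma rests on distance alone.

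At eEF1alpha1, the gene for the factor that delivers aminoacyl-tRNA, the peak at chr2R:11891836-11892215 had 97.1 over both replicates (rank 1068), 43.6 in replicate 1 and 52.9 in replicate 2. It passed in replicate 2 but not in replicate 1, where the −log10 IDR was 1.23. Its summit lay 96 bp upstream of an internal start and 891 bp inside the gene from the start farthest upstream. A further optimal-set peak, with 71.5 (rank 1616), lay 1482 bp upstream of the gene, in an intron of ERp60. Its summit was nearer to the start of ERp60, at 1326 bp. In the list of replicate 2 this upstream peak was stronger than the promoter peak, with 59.5 (rank 659). The list of replicate 1 did not hold it. The second copy, eEF1alpha2, had a candidate of 19.1 over both replicates, 16.7 in replicate 1 and 10.2 in replicate 2, so of the pair eEF1alpha1 alone had a listed promoter peak.

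The other exchange-complex genes had no candidate over both replicates, and neither replicate's ranked list held one of eEF1beta or eEF1delta. The ranked list of the conservative set held one of 33.8 at eEF1beta. The translocase gene eEF2 had one in replicate 2 alone, with 34.3. The gene eEF5, whose product helps the ribosome past stalling sequences and is called eIF5A elsewhere, had 35.3 over both replicates and 32.1 in replicate 2.

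**Figure D3:**
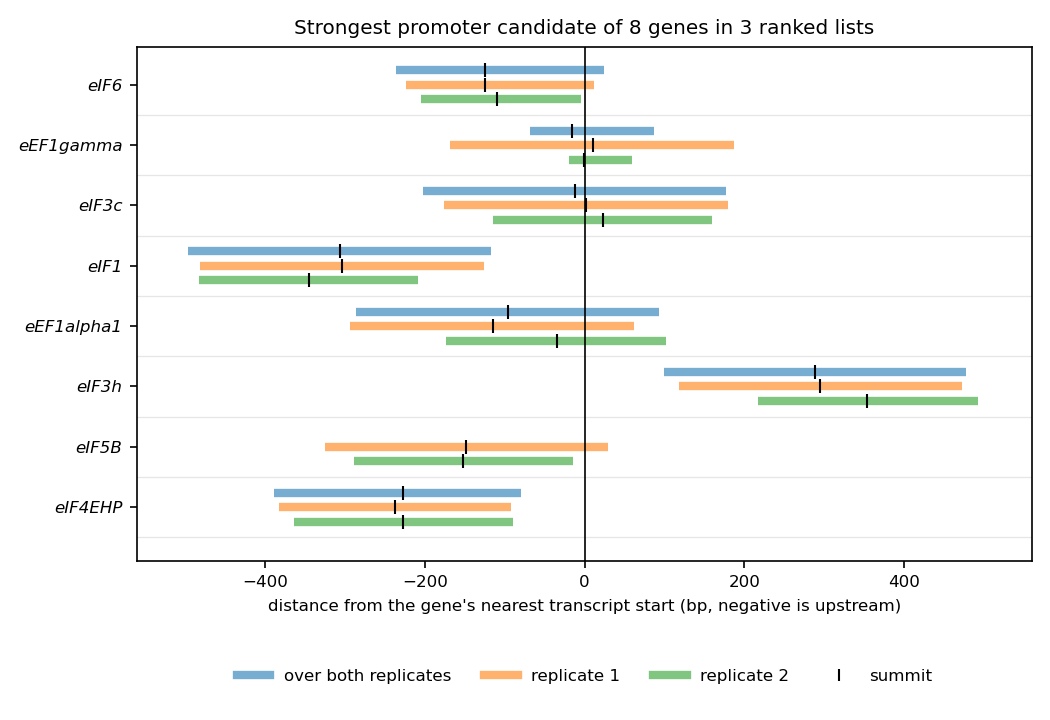
Extent (coloured bars) and summit (black ticks) of the strongest promoter candidate of 8 genes in the 3 ranked lists, by distance in bp from the gene's nearest start, negative values being upstream. The summits of eIF3c and eEF1gamma lie within 25 bp of the start in every list, those of eIF6 110 to 125 bp upstream, and those of eIF1 and eIF3h more than 250 bp away.

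Among the members with a peak, the summit lay a median of 110.5 bp from the start, beside 158 bp over all genes with a promoter peak. For 2 of the 6, eIF1 and eIF3h, the same summit also lay within 500 bp of another protein-coding start, beside 57.0% of all genes with a promoter peak. The median signal value of the 6 promoter peaks was 128.3, and that of the 801 other promoter peaks was 117.3, a ratio of 1.09. By arm, 3 of the 12 members on 2R had a peak, beside 6.87% of all genes there. On 2L it was 1 of 5 beside 8.05%, on 3L 1 of 11 beside 8.47%, and on 3R 1 of 15 beside 8.13%. None of the 7 on X had one, beside 6.51%, nor the 1 on chromosome 4, beside 1.25%.

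The replicates were compared gene by gene. Over the 22 members with a promoter candidate in both replicates' ranked lists, Spearman's rho was 0.763 and Pearson's r of the log10 signal values was 0.883, beside 0.537 and 0.679 over 6435 genes. These are descriptions across genes that share 2 libraries, and the members' values rest on a few strong peaks. In replicate 1 the 7 genes with a listed promoter peak and eIF4EHP had the highest values of the members, with 43.6 or more. Listing favours strong candidates, so this order was partly set in advance. In replicate 2 these genes had 28.7 or more, but eEF2, eEF5, eIF4A and eIF3g2, with 29.0 to 34.3, lay above eIF5B.

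**Figure D4:**
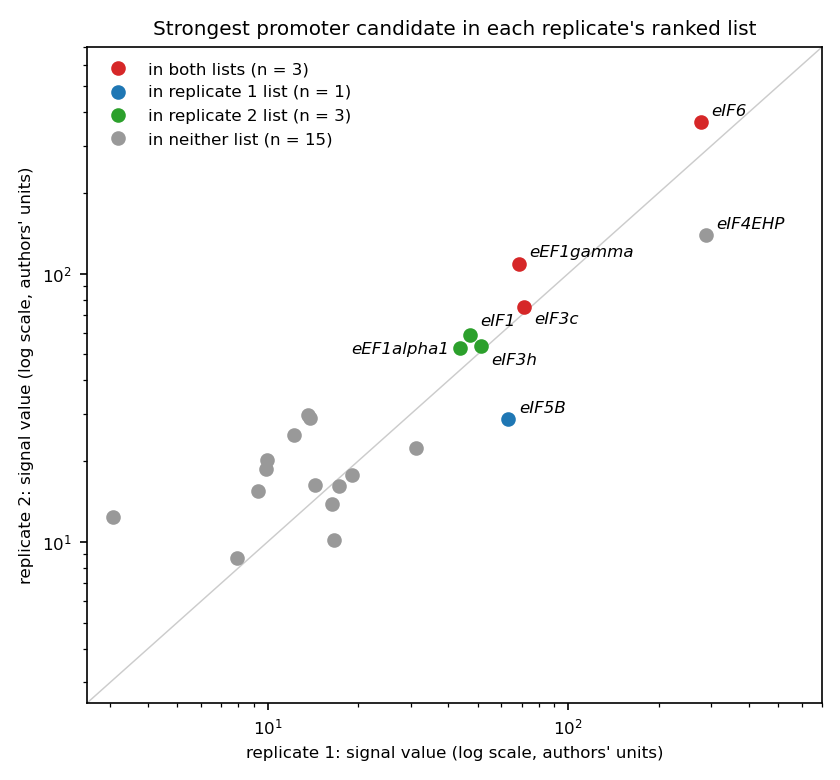
Signal value of the strongest promoter candidate in the ranked list of replicate 1 (x) and of replicate 2 (y), both log scales, for the 22 members with one in both; colours mark the thresholded lists that hold the peak. The 3 genes in both lists include eIF6 at the top right, eIF4EHP lies beside it in neither list, and the 3 genes found in the list of replicate 2 cluster at 43.6 to 51.3 in replicate 1.

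Beside these genes, 24 of 87 cytoplasmic ribosomal protein genes (27.6%, 19.3 to 37.8%) had a promoter peak in the optimal set, 10 of 73 mitochondrial ribosomal protein genes (13.7%) and 1 of 48 proteasome genes (2.08%, 0.369 to 10.9%). In the list of replicate 1 the shares were 13.8%, 12.3% and 2.08%, and in that of replicate 2 they were 31.0%, 9.59% and 2.08%. The translation factors thus lay between the proteasome and the cytoplasmic ribosomal protein genes in each list, with intervals that overlap both. Of 26 other translation genes, 3 had a peak in the optimal set: eRF3, the termination GTPase, with 93.1, larp, an mRNA-binding regulator, with 73.4, and mTor, the growth kinase, with 68.6. The strongest promoter candidate of larp, with 508 over both replicates, 279 in replicate 1 and 230 in replicate 2, was not the optimal-set peak. In the replicates' lists 2 of the 26 had a promoter peak, eRF3 and larp in replicate 1, and larp and pAbp, the poly(A)-binding protein gene, in replicate 2. The median of these 2 genes was 58.9 in replicate 1 and 63.0 in replicate 2. The listed peaks of larp were thus weaker ones, and its candidate of 279 and 230 was in neither replicate's list.

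Promoter sequence, taken from 250 bases before to 50 bases after the start farthest upstream, was searched for the words given above. TATCGATA was in 14 of the 51 promoters (27.5%, 17.1 to 40.9%) beside 9.36% of all protein-coding genes and 29.9% of cytoplasmic ribosomal protein genes. TAATTA was also in 14 (27.5%) beside 20.4% of all, CAGCTG in 4 (7.84%) beside 17.6%, and GAGAG in 8 (15.7%) beside 29.7%. TCTTT, the core of the pyrimidine tract at which ribosomal protein messages start, began within 5 bases of the start on the sense strand in 2 promoters, those of eIF3i and eIF4A (3.92%), beside 1.60% of all and 33.3% of cytoplasmic ribosomal protein genes. The translation factor promoters thus held the DREF word about as often as ribosomal protein promoters, and the TCTTT start far less often in these counts.

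TATCGATA was in the promoters of eEF1gamma, eIF3c and eIF6, the 3 genes with a peak in both replicates' lists, and in none of eIF1, eIF3h and eEF1alpha1 by this window. A promoter peak was present for 3 of 14 members with the word and 3 of 37 without it, and over all genes for 9.10% of 1307 with it and 7.46% of 12661 without it. The word lay 21 bp from the optimal-set summit at eEF1gamma and 14 bp from it at eIF1, where it lies beyond the promoter window of eIF1. The start of RpL28 is nearer to that summit, and the promoter of RpL28 held the word. The summit lay 306 bp upstream of eIF1 in the optimal set but 345 bp upstream in replicate 2. Distances of the word from the replicates' own summits were not taken. Among all 807 promoter peaks, 1.73% had it within 50 bp of the summit. Within 250 bp it was also found at eIF6 (117 bp) and eIF3c (204 bp), so in 4 of the 6, beside 8.67% of promoter peaks. These 4 include the eIF1 peak, which cannot be told apart from a peak of RpL28. The match was looked at after the peaks were known and was not tested.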

How the data were processed

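ChIP-seq was done on whole embryos of 2 biological replicates, per the labels. The authors deposited ranked and thresholded peak lists on dm6; which aligner and peak caller were used is not stated (not given in the sources used here). Each peak has the authors' signal value (normalisation not given, used within a list) and a deposited −log10 q value, printed here as q; the ranked lists add a deposited −log10 of the global IDR. Every thresholded peak had at least 2, an IDR of at most 0.01. The ranked lists over both replicates hold 16 columns of single replicates that were matched to no sample and left aside. No list gives a read total.

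Summits were assigned to starts of Ensembl release 115 (BDGP6 6.54), within 500 bp, to the nearest start, or to gene bodies with 2 kb upstream. The assignment was checked on simulated data. Sequence came from RefSeq Release 6. Members and lists were chosen with earlier results of these data known. Named genes were those with a promoter peak in the optimal set or a replicate's list, those nearest to an optimal-set peak, and the highest candidate per role; paralogs, and the sequences other than those of eEF1gamma, were added after values were seen. Of 27 symbols in the other translation list 26 matched, Tor as mTor; Gcn1 did not. Wilson 95% intervals were used. Alternatives were other lists, windows, filters and assignments, and each replicate alone; adding every candidate past the IDR threshold was chosen after seeing the data. Scripts ran in Python 3.11.15 with scipy 1.17.1, pandas 2.3.3 and numpy 2.4.6.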

Additional observations from a re-analysis of the deposited data

How the results depend on the processing

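The count of 6 genes with a promoter peak was 4 to 6 with either replicate left out, and 3 when a peak had to be in both replicates' lists. It was 4 within 250 bp, 4 at a q of at most 0.05, 4 at or above the median signal and 4 with the 5′-most start only. Within 1000 bp it was 7, and it stayed at 6 in the conservative set and without peaks that overlap a stronger one. The share of members minus that of other genes, 4.16 percentage points, stayed above 0 in every setting tried, from 1.38 points with the 5′-most start only to 6.35 without replicate 1. The ratio of median signal values, 1.09, turned on few peaks: it was 1.00 in the conservative set, 1.04 for peaks in both lists, 1.36 within 250 bp, 1.29 within 1000 bp, 0.965 at a q of at most 0.05, 0.992 above the median signal, 1.43 with the 5′-most start, and 0.906 to 0.964 with a replicate left out. The 6 genes nearest to a peak became 3 for peaks in both lists, 3 at that q, 3 above the median signal, 10 by gene body, and 4 to 6 with a replicate left out. As a share this lay above that of other genes, 11.8% beside 10.5%, but fell below it above the median signal, 5.88% beside 6.08%, and without replicate 2, 7.84% beside 8.05%. The median percentile, 75.4 beside 74.0 for other genes, was 55.4 beside 67.4 within 250 bp, 78.7 beside 82.6 within 1000 bp, 68.0 beside 71.4 without replicate 2 and 80.5 beside 71.7 without replicate 1. The causes were not tested. The peaks of eIF6, eIF3c and eEF1gamma were found in all 10 settings, that of eIF1 in 7, eEF1alpha1 in 5 and eIF3h in 4. Adding every candidate past the IDR threshold, chosen after seeing the data, gave 7 genes with eIF4EHP. No paired analysis was possible because the replicates form 1 group. With no read totals, depth sets an unknown limit on the genes without a candidate.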
